A study of Homo sapiens with 18 samples.

Results

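The colony-stimulating factor system was examined in PMA-differentiated THP-1 macrophages through 6 genes, selected by symbol: the ligands CSF1 and IL34 and the receptor genes CSF1R, CSF2RA, CSF2RB and CSF3R. These are 6 of the 60623 genes in the count table, and 5 of them were among the 17851 genes with enough counts to test. IL34 was the exception, with 1 count in 1 of 18 libraries. CSF1 was the member that set the lines apart most: it was at 2.81 to 16.1 CPM (read counts scaled to a library total of 1 M) in the 12 libraries of the other lines and at 446 CPM or more in all 6 of the Siglec-14 line. CSF2RA, which encodes the ligand-binding chain of the GM-CSF receptor, went the other way in mock medium.

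CSF-1, the product of CSF1, and IL-34 are both ligands of the receptor tyrosine kinase encoded by CSF1R, which carries survival and differentiation signals in monocytes and macrophages. GM-CSF binds a complex of the alpha chain encoded by CSF2RA and the common beta chain encoded by CSF2RB, a chain shared with the receptors of IL-3 and IL-5, and this complex signals through JAK2 and STAT5. CSF3R encodes the receptor of G-CSF, the factor best known for driving neutrophil production.

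THP-1 is an established human monocytic leukaemia line. Per the labels, 3 derivatives were used: EV with an empty vector, S5 expressing Siglec-5 and S14 expressing Siglec-14, all given 100 nM of the phorbol ester PMA for 24 h. They were then kept in mock medium or, for 48 h, in 50% conditioned medium (CM) from SW620, an established colorectal cancer line, which gave 6 groups of 3 libraries. No time in mock medium is given, so the medium and any difference in culture time after PMA cannot be told apart. The labels name no promoter for the transgenes and do not say whether a line was a clone or a pool, so the transgene and other features of each line cannot be told apart. Separate cultures for the replicates are not stated either, so the p-values reflect the spread of these samples alone, and that spread may be technical.

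Library totals ran from 15.0 to 26.05 M counts, so 3 counts in a library, taken as the limit for a gene without counts, corresponded to 0.114 to 0.221 CPM (counting error only). SIGLEC14 was at 503 to 926 CPM in S14, 29.5 to 44.1 CPM in S5 and 13.0 to 22.7 CPM in EV. SIGLEC5 has 2 rows in the table, both at 1.14 CPM or less in all libraries. The first (ENSG00000105501) was at 0.437 to 0.871 CPM in S5 and 0.650 to 1.14 CPM in EV in mock medium, and at 0.658 to 0.878 CPM in S5 and 0.404 to 0.644 CPM in EV in CM. The second (ENSG00000268500) was at 0.152 to 0.274 CPM in S5, 0 to 0.390 CPM in S14 and 0 in EV. Of the exon bases of the first, 77.5% are shared with other genes, SIGLEC14 among them. S5 below stands for the line labelled so. Replicate 3 stood apart in all groups, with 4.26 ± 0.237% mitochondrial counts (SD, n = 6) against 2.77 ± 0.674% in replicates 1 and 2 (SD, n = 12). The 12 macrophage markers, CD14, ITGAM and LYZ among them, summed to 3263 to 5413 CPM. CD68 was at 0.525 to 1.62 CPM and shares 85.8% of its exon bases with other genes. MRC1 and MARCO were low as well, with 310 counts over 17 libraries and 1387 over 18, against 185482 for CD14. The colorectal epithelial markers EPCAM, KRT20 and CEACAM5 had no counts, and all 9 epithelial markers stayed under 1 CPM, in mock and conditioned medium alike.

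On GRCh38 with GENCODE 29, CSF1 (ENSG00000184371) lies at chr1:109910242-109930992 on the plus strand, IL34 (ENSG00000157368) at chr16:70579895-70660682 on the plus strand and CSF2RB (ENSG00000100368) at chr22:36913628-36940449 on the plus strand. CSF1R (ENSG00000182578) lies at chr5:150053291-150113372 on the minus strand and CSF3R (ENSG00000119535) at chr1:36466043-36483278 on the minus strand. CSF2RA (ENSG00000198223) lies at chrX:1268800-1310381 on the plus strand, in the pseudoautosomal region, which has a copy on the Y chromosome. How reads from this region were counted is not given, so the level of CSF2RA relative to other genes is uncertain. No exon of any member overlaps an exon of another annotated gene.

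Promoter windows from RefSeq (GRCh38.p14) were found for 3 of the 6 members. Since PU.1 and RUNX1 are known to act at the CSF1R promoter in myeloid cells, 3 receptor windows are shown, each with the 250 bases before an annotated start, read 5′ to 3′ on the gene's strand. Capitals mark GAGGAA, a core that PU.1 can bind, and TGTGGT, a core that RUNX factors can bind. Both strands were searched (TTCCTC and ACCACA on the other), and no marked matches overlap. The windows are chr5:150086555-150086804 (minus) for CSF1R, chrX:1268564-1268813 (plus) for CSF2RA and chr1:36482914-36483163 (minus) for CSF3R.
CSF1R: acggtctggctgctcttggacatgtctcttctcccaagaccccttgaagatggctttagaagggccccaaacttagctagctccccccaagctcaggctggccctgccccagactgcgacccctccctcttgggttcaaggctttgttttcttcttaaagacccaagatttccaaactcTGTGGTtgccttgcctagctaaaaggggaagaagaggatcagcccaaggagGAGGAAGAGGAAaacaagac
CSF2RA: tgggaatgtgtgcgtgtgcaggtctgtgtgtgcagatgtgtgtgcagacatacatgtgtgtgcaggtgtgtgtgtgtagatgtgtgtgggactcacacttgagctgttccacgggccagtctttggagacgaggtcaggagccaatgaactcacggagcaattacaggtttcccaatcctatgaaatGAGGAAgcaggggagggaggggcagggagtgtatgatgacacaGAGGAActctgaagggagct
CSF3R: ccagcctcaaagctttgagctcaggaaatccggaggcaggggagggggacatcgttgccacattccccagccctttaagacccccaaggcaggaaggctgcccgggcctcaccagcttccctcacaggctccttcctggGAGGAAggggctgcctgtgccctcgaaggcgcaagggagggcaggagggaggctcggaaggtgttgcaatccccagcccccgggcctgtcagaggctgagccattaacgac

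The CSF1R window held 2 GAGGAA copies back to back, beginning 20 and 14 bases before the start, and a TGTGGT 71 bases before it. The CSF2RA window held GAGGAA at 63 and 20 bases before its start, and the CSF3R window held 1 copy, at 111 bases. Over all 34961 promoter windows of this length, 23.6% held GAGGAA at least once, 3.49% held it at least 2 times and 11.0% held TGTGGT. A second CSF1R window (chr5:150113366-150113615, minus) and a second CSF3R window (chr1:36483315-36483564, minus) held neither motif. SPI1, the gene for PU.1, was at 309 CPM in S14 mock and 252 CPM in EV mock, a log2 difference of 0.29 ± 0.12 (SE, edgeR adjusted p = 0.0920). RUNX1 was at 167 and 205 CPM (log2 difference -0.29 ± 0.36, adjusted p = 0.606). Neither was called by edgeR, and DESeq2 called SPI1 (adjusted p = 0.0342). A match is a description of the letters only.

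CSF1, the ligand, was at 543, 446 and 653 CPM in replicates 1, 2 and 3 of S14 mock and at 739, 702 and 634 CPM in S14 CM. In EV it was at 3.05, 5.11 and 10.8 CPM in mock medium and at 2.81, 3.23 and 16.1 CPM in CM. In S5 it was at 4.55, 3.63 and 3.22 CPM in mock medium and at 4.61, 4.35 and 3.37 CPM in CM. The 6 S14 libraries were all far above the other 12, without overlap, and the highest controls were the EV libraries of replicate 3. The low values rested on real counts: 64, 110 and 284 reads in EV mock and 74 to 102 in S5 mock.

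**Figure D1:**
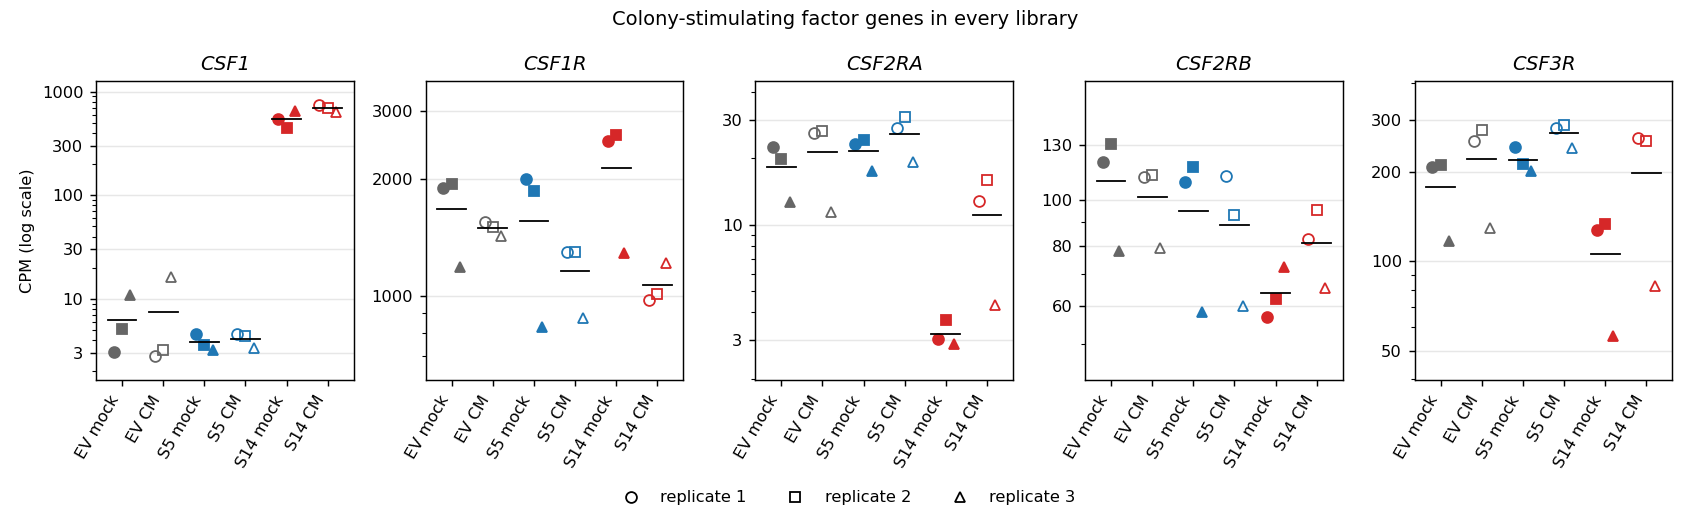
CPM (log scale) of the 5 tested genes in each of the 18 libraries, with filled symbols for mock and open symbols for SW620-conditioned medium, colours for the lines and bars for the mean of 3 libraries. CSF1 was between 446 and 739 CPM in S14 and at most 16.1 CPM elsewhere, and CSF2RA was lowest in S14 mock.

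The mean CSF1 level in S14 was 86.7 times that of EV in mock medium and 93.5 times in CM, with log2 differences of 6.43 ± 0.63 (SE, 95% interval 5.08 to 7.78) and 6.54 ± 0.64 (5.18 to 7.89). Against S5 it was 144 times and 168 times, with log2 differences of 7.17 ± 0.66 (edgeR adjusted p = 5.74e-06) and 7.40 ± 0.67 (adjusted p = 4.80e-06). Of the 17851 genes tested, 28 had a larger log2 difference between S14 and EV in mock medium, and 13 had one between S14 and S5 in that medium. Within replicate numbers, S14 was above EV by 178, 87.4 and 60.5 times in mock medium and by 263, 217 and 39.3 times in CM. Against S5 the same ratios ran from 119 to 203. Without EV mock replicate 3 the log2 difference in mock medium was 7.09, and without EV CM replicate 3 that in CM was 7.85.

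IL34, the other CSF1R ligand, had its 1 count in replicate 3 of S5 mock and none in the other 17 libraries, a level at or under 0.221 CPM by the limit of 3 counts. The ligands of the remaining receptors were as scarce. CSF2 (GM-CSF) had 3 counts over 2 libraries, CSF3 (G-CSF) had 3 counts over 2 libraries, IL3 had none and IL5 had 9 counts over 7 libraries. CSF1 was thus the 1 ligand of the system with enough counts to test.

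CSF1R, the receptor of CSF-1, was among the most abundant messages of all lines. It was at 1895, 1939 and 1186 CPM in EV mock, 1998, 1859 and 831 CPM in S5 mock and 2511, 2607 and 1289 CPM in S14 mock. In CM it was at 1552, 1505 and 1426 CPM in EV, 1297, 1297 and 877 CPM in S5 and 974, 1010.05 and 1213 CPM in S14. In mock medium replicate 3 was the lowest library of each line, at 0.431 to 0.619 times the mean of replicates 1 and 2, and the groups overlapped. In CM all 3 S14 libraries lay under all 3 EV libraries. The log2 difference between S14 and EV was 0.35 ± 0.31 in mock medium (95% interval -0.31 to 1.02, edgeR adjusted p = 0.466) and -0.49 ± 0.31 in CM (-1.15 to 0.18, adjusted p = 0.392), and neither was called.

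On the length-scaled measure deposited by the authors, TPM (transcripts per 1 M, after scaling for length), which allows levels of different genes to be compared, CSF1R exceeded CSF1 by 112 to 631 times in EV mock and by 262 to 521 times in S5 mock. In S14 mock it exceeded CSF1 by 2.01 to 5.94 times. In CM the ratio was 89.8 to 562 in EV, 265 to 303 in S5 and 1.34 to 1.95 in S14. Ligand message thus stood at 29.3 ± 17.9% of receptor message in S14 mock and at 64.8 ± 12.0% in S14 CM (SD, n = 3 each), against 0.158 to 1.11% in the other 12 libraries. By mean TPM over all 60623 genes, CSF1 ranked 11923 in EV mock, 343 in S14 mock and 272 in S14 CM. CSF1R ranked from 68 (S14 mock) to 152 (S14 CM).

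**Figure D2:**
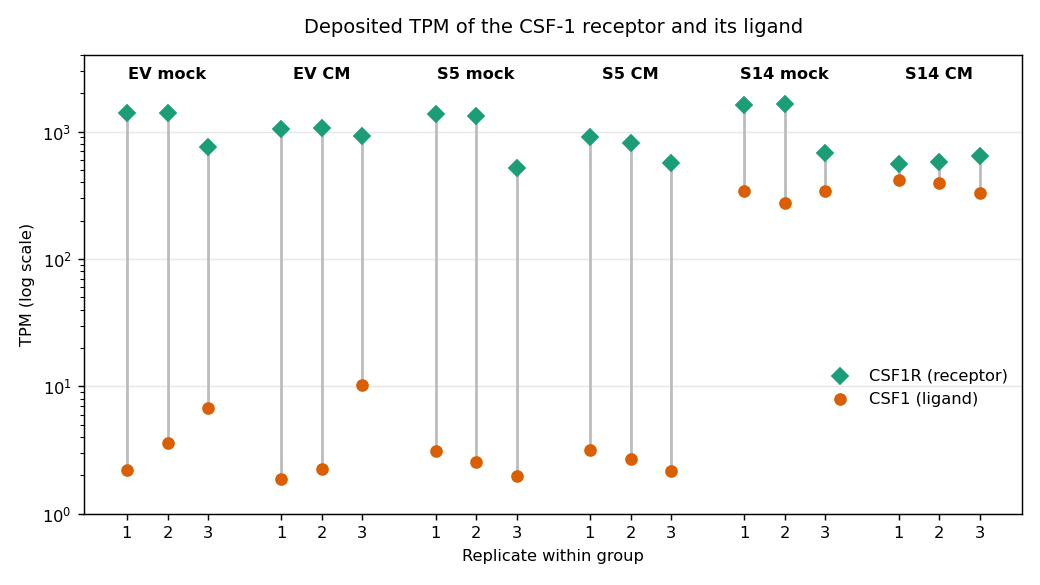
Deposited TPM (log scale) of CSF1R (diamonds) and CSF1 (circles) in each library, joined by a line, with the replicate number on the horizontal axis and the group above. CSF1R was 1.34 to 5.94 times CSF1 in the S14 libraries and at least 89.8 times CSF1 in each of the others.

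CSF2RA, the alpha chain of the GM-CSF receptor, was at 3.03, 3.71 and 2.87 CPM in S14 mock, against 22.6, 19.9 and 12.7 CPM in EV mock and 23.2, 24.2 and 17.5 CPM in S5 mock. In CM it was at 12.8, 15.9 and 4.30 CPM in S14, 26.1, 26.5 and 11.4 CPM in EV and 27.5, 30.7 and 19.3 CPM in S5. In mock medium the S14 libraries lay under all others. In CM they lay under all S5 libraries but overlapped EV, whose replicate 3 was low. The log2 difference in mock medium was -2.52 ± 0.43 against EV (edgeR adjusted p = 0.000740) and -2.76 ± 0.43 against S5 (adjusted p = 0.000353), ratios of mean CPM of 5.74 and 6.76. In CM it was -0.96 ± 0.40 against EV (adjusted p = 0.151) and -1.23 ± 0.40 against S5 (adjusted p = 0.0529), neither called. With the replicate number as a block, both CM differences were called, at -1.0 (adjusted p = 0.00472) and -1.34 (adjusted p = 0.000517). Without S14 CM replicate 2 the difference from S5 in CM was called as well, at -1.60 (adjusted p = 0.0349).

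CSF2RB, the common beta chain, was at 57.0, 62.2 and 72.6 CPM in S14 mock, 119.7, 131 and 78.0 CPM in EV mock and 109, 117 and 58.4 CPM in S5 mock. In CM it was at 82.9, 95.3 and 65.5 CPM in S14, 111, 113 and 79.2 CPM in EV and 112, 93.0 and 60.2 CPM in S5. S14 and EV did not overlap in mock medium, though the gap rested on 78.0 against 72.6 CPM, both from replicate 3. The log2 difference between S14 and EV in mock medium was -0.78 ± 0.28 (edgeR adjusted p = 0.0626), not called, and -0.70 with the replicate block (adjusted p = 0.00918), called. Without EV mock replicate 3 it was -0.95 (adjusted p = 0.0373), and without S5 mock replicate 3 the difference between S14 and S5 was -0.79 (adjusted p = 0.0494), against -0.57 ± 0.28 (adjusted p = 0.163) with it. By TPM, CSF2RB exceeded CSF2RA by 12.9 to 19.4 times in S14 mock, 4.07 to 5.04 times in EV mock and 2.56 to 3.70 times in S5 mock. In CM the ratio was 4.60 to 11.7 in S14, 3.27 to 5.34 in EV and 2.32 to 3.13 in S5, so S14 and EV overlapped there.

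CSF3R, the G-CSF receptor, was at 128, 134 and 56.0 CPM in S14 mock, 209, 211 and 117 CPM in EV mock and 243, 214 and 202 CPM in S5 mock. In CM it was at 261, 255 and 82.5 CPM in S14, 255, 278 and 129.7 CPM in EV and 282, 288 and 242 CPM in S5. S14 mock lay under S5 mock without overlap, replicate 3 was low in S14 and EV, and S14 and EV overlapped in both media. In mock medium the log2 difference was -0.76 ± 0.40 against EV (edgeR adjusted p = 0.210) and -1.05 ± 0.41 against S5 (adjusted p = 0.0784), neither called. With the replicate block both were called, at -0.80 (adjusted p = 0.0163) and -1.17 (adjusted p = 0.00152).

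Granulocyte precursor markers, a myeloid programme whose cells carry both CSF2RA and CSF3R, were also lowest in S14 in mock medium. Their sum over 8 genes was 96.1 to 240.5 CPM in S14 mock, 430 to 480.1 CPM in EV mock and 524 to 1904 CPM in S5 mock, with CEACAM8 at 0 in all libraries. Of the 8 genes, 5 could be tested. Between S14 and EV, 1 was called lower in mock medium, against 20.0% of all genes, and 0 in CM, against 11.1%. With the replicate block these counts were 2 and 1, where 6672 and 4207 of all 17851 genes were called. In mock medium the count was 0 to 1 with 1 library left out and 0 to 4 under the other alternatives. The 4 came with replicates 1 and 2 only, where 9921 of all 17829 genes were called. Between S14 and S5, 4 were called lower in mock medium, against 21.5% of all genes, and 5 in CM, against 13.8%. The part of these markers in the receptor differences was not tested. The macrophage marker sum was 3263 to 3558 CPM in S14 mock and 4485 to 4585 CPM in EV mock. Of the 12 genes 6 were called lower and 0 higher there, against 20.0% of all genes. In CM the sums overlapped, at 3381 to 5413 CPM in S14 and 4339 to 4509 CPM in EV. There 3 were called lower and 1 higher, against 11.1% of all genes, and leaving out 1 library gave 1 to 3 calls. The 8 lymphocyte markers summed to 1.67 to 5.11 CPM and 6 fibroblast markers to 2.86 to 7.34 CPM. In bulk libraries, fewer cells of a type and less RNA per cell cannot be told apart.

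Counted together, 2 of the 5 tested members were called between S14 and EV in mock medium (CSF1 higher, CSF2RA lower), where 20.0% of all tested genes were called. In CM 1 was called (CSF1), against 11.1% of all genes. Between S14 and S5, 2 members were called in mock medium against 21.5% of all genes, and 1 in CM against 13.8%. The median log2 difference between S14 and EV in mock medium was -0.76 over the members and -0.02 over all genes tested. These comparisons share the S14 libraries. The number of genes behind these shares moved with single libraries. Between S14 and EV it was 3575 in mock medium and 2264, 2315 and 2318 without EV mock replicate 1, S14 mock replicate 1 or S14 mock replicate 2, and in CM it was 1990 and 1164 or 1173 without EV CM replicate 1 or 2. Between S14 and S5 in mock medium it was 3835 and 2514 without S14 mock replicate 1. With the replicate block, 4 members were called between S14 and EV in mock medium and 2 in CM. Between S14 and S5 in CM 2 were called. Over all 17851 genes tested the block called 6672, 4207 and 4744 in these comparisons.

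**Figure D3:**
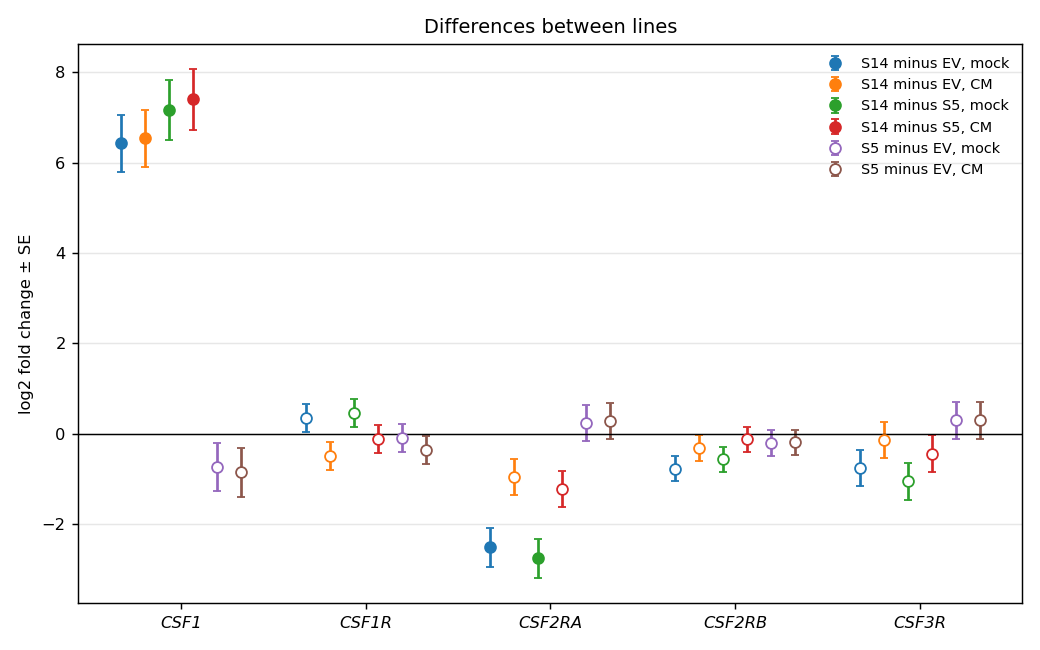
Log2 differences between lines with standard errors for the 5 tested genes in both media, filled where edgeR's adjusted p was under 0.05 and open elsewhere. CSF1 was 6.43 to 7.40 higher in S14, CSF2RA was lower in S14 in all 4 comparisons and called in 2, and the S5 minus EV points lie between -0.86 and 0.29.

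No member was called by edgeR between the line labelled S5 and EV. In mock medium 0 of 5 members were called, 0 had an unadjusted p under 0.05 and DESeq2 called 0; 0% of all tested genes were called, 411 had an unadjusted p under 0.05 and DESeq2 called 5. In CM the member counts were again 0, 0 and 0, with 0% of all genes called, 543 at an unadjusted p under 0.05 and 10 called by DESeq2. The log2 differences of the members ran from -0.74 to 0.29 in mock medium and from -0.86 to 0.29 in CM. The lowest value in each medium was that of CSF1, with 95% intervals of -1.89 to 0.40 and -2.004 to 0.28, so a moderate difference was not detectable. By replicate, CSF1 in S5 was above EV in 1 of 3 pairs in mock medium and in 2 of 3 in CM.

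No member was called by edgeR between SW620-conditioned and mock medium in any line. In EV 0 of 5 were called, where 0.00560% of all tested genes (1 gene) were called, and the log2 responses ran from -0.16 to 0.30. In S5 0 of 5 were called, with 0.00560% of all genes called as well, and the responses ran from -0.43 to 0.30. In both lines 0 members had an unadjusted p under 0.05 and DESeq2 called 0. Over all 17851 genes tested, 267 in EV and 347 in S5 had an unadjusted p under 0.05, and DESeq2 called 4 and 3. The 1 gene that edgeR called in EV was lost without EV mock replicate 1 or 2 or EV CM replicate 3. That in S5 was lost on leaving out any library of S5 but mock replicate 3. The 95% intervals over the members reached from -0.89 to 1.34 in EV and from -1.10 to 1.28 in S5.

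In S14, 0 of 5 members were called in CM against mock medium, while 3 had an unadjusted p under 0.05 and DESeq2 called 2. Over all 17851 genes tested, 2982 had an unadjusted p under 0.05, DESeq2 called 882 and edgeR called 0.0504%. The 9 genes behind that share were 0 without replicate 1 or 2 of S14 mock or S14 CM, 2043 without S14 mock replicate 3 and 1408 without S14 CM replicate 3. The 3 members were receptor genes with the largest estimates. CSF2RA was at a mean of 11.0 CPM in CM and 3.20 CPM in mock medium, a log2 difference of 1.78 ± 0.42 (edgeR adjusted p = 0.0695) without overlap. CSF1R was at 1066 CPM in CM and 2136 CPM in mock medium, -1.003 ± 0.32 (adjusted p = 0.123), also without overlap. CSF3R was at 199 and 106 CPM, 0.91 ± 0.41 (adjusted p = 0.270), with overlap. With the replicate block all 3 were called: CSF2RA at 1.65 (adjusted p = 0.00836), CSF1R at -0.90 (adjusted p = 0.0261) and CSF3R at 0.87 (adjusted p = 0.0325). The block called 1956 of all 17851 genes tested in this comparison. CSF1 itself was at 0.34 ± 0.50 (adjusted p = 0.795) and CSF2RB at 0.35 ± 0.28 (adjusted p = 0.585).

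The responses of the S14 line differed between replicate numbers. For CSF1R the log2 difference was -1.37, -1.37 and -0.09 in pairs 1, 2 and 3. For CSF2RA it was 2.09, 2.10 and 0.58, and for CSF3R 1.03, 0.93 and 0.56. The direction was shared by 3 of 3 pairs for each, with pair 3 the smallest. The share of mitochondrial counts was 1.59%, 1.49% and 4.52% in S14 mock replicates 1, 2 and 3 and 3.11%, 2.88% and 4.51% in S14 CM, and its part in these differences was not tested. Without S14 CM replicate 3 the CSF2RA response was 2.16 (adjusted p = 0.00268) and the CSF3R response 1.28 (adjusted p = 0.0380). Without S14 mock replicate 3 the CSF1R response was -1.26 (adjusted p = 0.0169) and the CSF2RA response 1.70 (adjusted p = 0.0403).

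**Figure D4:**
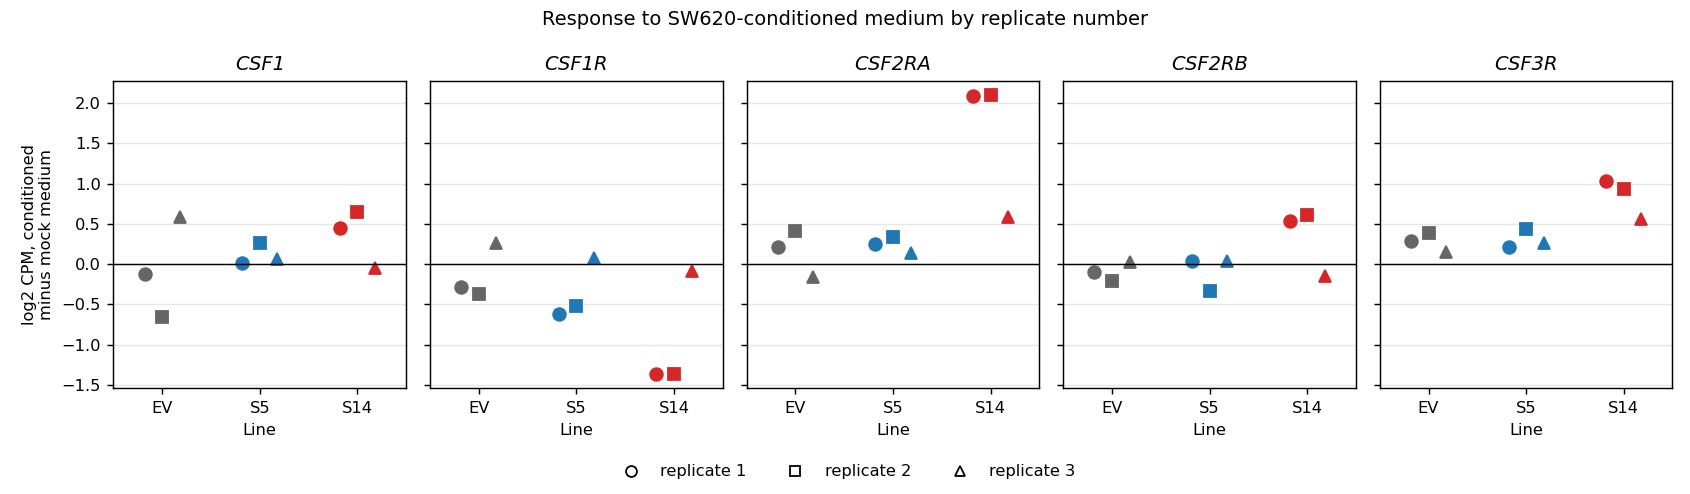
Log2 difference in CPM between SW620-conditioned and mock medium for libraries with the same replicate number, by line, for the 5 tested genes. In S14, CSF1R was lower and CSF2RA and CSF3R were higher in all 3 pairs, least so in pair 3; in EV and S5 no point exceeded 0.66 in size.

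The difference in response between lines was tested directly, and no member was called. For S14 minus EV, 0 of 5 were called (0% of all genes, 812 at an unadjusted p under 0.05), 1 member had an unadjusted p under 0.05 and DESeq2 called 0. That member was CSF2RA, at 1.56 ± 0.57 (unadjusted p = 0.0151, edgeR adjusted p = 1.00). For S14 minus S5, 0 of 5 were called (0% of all genes, 628 unadjusted), 1 was under 0.05 unadjusted and DESeq2 called 0. It was again CSF2RA, at 1.52 ± 0.57 (unadjusted p = 0.0172, adjusted p = 1.00). CSF1R was at -0.84 ± 0.44 and -0.57 ± 0.44 in these tests. For S5 minus EV, 0 of 5 were called (0% of all genes, 48 unadjusted), 0 were under 0.05 unadjusted and DESeq2 called 0, with estimates from -0.27 to 0.04. Over all genes DESeq2 called 4, 4 and 0 in these tests. Without S14 mock or S14 CM replicate 3, edgeR called 107 and 41 genes for S14 minus EV and 45 and 26 for S14 minus S5.

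By mean TPM, CSF1R was the highest member in all 6 groups, and the order below it differed by line. In EV mock it was at 1178 ± 361, followed by CSF2RB at 79.4 ± 24.2 and CSF3R at 77.2 ± 27.1, which did not differ beyond their spread, then CSF2RA at 17.4 ± 5.81 and CSF1 at 4.20 ± 2.36 (SD, n = 3 each). In S14 mock it was at 1310.15 ± 543, followed by CSF1 at 319 ± 38.1, then CSF3R at 39.9 ± 18.8 and CSF2RB at 39.2 ± 1.34, again within their spread, and CSF2RA at 2.60 ± 0.542. CSF1 thus stood in the second place in S14 and in the last among the detected members in EV. In S14 CM the distance between CSF1R (593 ± 45.3) and CSF1 (380.5 ± 44.1) was the smallest of the 6 groups. In S5 mock the order was CSF1R at 1074 ± 484, CSF3R at 90.8 ± 13.0, CSF2RB at 67.1 ± 26.1, these also within their spread, CSF2RA at 19.8 ± 4.59 and CSF1 at 2.53 ± 0.557. In EV CM and S5 CM the order of the means was the same as in S5 mock, with CSF3R and CSF2RB again within their spread in EV CM.

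Other genes of the pathway were taken from lists rather than for how they moved, and their counts are read against the 20.0% of all genes called between S14 and EV in mock medium and the 11.1% called in CM. Among 5 further receptors of these ligands, IL5RA and PTPRZ1 had too few counts to test. SDC1, a syndecan to which IL-34 can bind, was at 4.86 CPM in S14 mock and 0.407 CPM in EV mock (3.54 ± 0.77, edgeR adjusted p = 0.00450) and at 3.41 against 0.511 CPM in CM (2.70 ± 0.75, adjusted p = 0.0285). TREM2, a lipid receptor that pairs with the same adaptor as Siglec-14 and for which IL-34 has been described as a ligand, fell in S14 mock to 467 from 907 CPM (-0.96 ± 0.23, adjusted p = 0.00928). IL3RA was near 1 CPM and was not called. The SDC1 call in CM was lost on leaving out EV CM replicate 1 or 2 or S14 CM replicate 1 or 3, with adjusted p from 0.0577 to 0.125.

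Of 20 genes of proximal receptor signalling, 4 rose and 3 fell between S14 and EV in mock medium (median log2 difference 0.09), against 20.0% of all genes, and 3 rose and 0 fell in CM, against 11.1%. In CM 3 rose and 4 fell with the replicate block, where 4207 of all 17851 genes were called. DESeq2 called 6 of the list in CM and upper-quartile scaling 5, 3 of them higher in each. The share of all genes called there by DESeq2 or with upper-quartile scaling is not listed here. Whether the list exceeded that share in these settings can therefore not be told. JAK2, the kinase of the GM-CSF receptor, fell to 32.6 from 65.9 CPM in mock medium (-1.01 ± 0.16, edgeR adjusted p = 0.000389). In CM its difference was -0.50 ± 0.16 (adjusted p = 0.0532), and -0.51 with the replicate block (adjusted p = 0.00930). PIK3CD, a catalytic subunit of PI3-kinase, fell to 53.7 from 125 CPM (-1.22 ± 0.19, adjusted p = 0.000380). In CM it was at -0.58 ± 0.19 (adjusted p = 0.0568), and at -0.58 with the replicate block (adjusted p = 0.0209). CBLB, a ubiquitin ligase of the CBL family, rose in mock medium (1.89 ± 0.27, adjusted p = 0.000209) and in CM (1.93 ± 0.27, adjusted p = 0.000275). PIK3AP1, a PI3-kinase adaptor, rose by 0.53 in mock medium (adjusted p = 0.00997, and 0.0532 without S14 mock replicate 2) and by 0.96 in CM. Without S14 mock replicate 2, the number called in this list was 4.

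Of 10 genes that STAT factors induce or that feed back on them, 8 could be tested, and 4 rose and 0 fell in S14 mock (median log2 difference 0.54), against 20.0% of all genes. PIM1, a kinase gene induced by STAT factors, was at 178 against 30.02 CPM in mock medium (2.56 ± 0.31, edgeR adjusted p = 4.81e-05) and at 445 against 42.1 CPM in CM (3.40 ± 0.32, adjusted p = 8.19e-06). BCL2L1 and MCL1, which encode survival proteins, rose by 0.64 (adjusted p = 0.00929) and 0.95 (adjusted p = 0.00339) in mock medium, and the cytokine gene OSM rose by 1.72 (adjusted p = 0.00712). In CM 2 rose, PIM1 and BCL2L1, against 11.1% of all genes. The feedback genes CISH and SOCS3 were at about 3 CPM in both lines and were not called.

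Of 10 genes known to be induced downstream of CSF1R, 4 rose and 1 fell in S14 mock (median log2 difference 1.16), against 20.0% of all genes, and 4 rose and 0 fell in CM (median 0.72), against 11.1%. With the replicate block 8 were called in mock medium, where 6672 of all 17851 genes were, and 7 in CM, where 4207 were. In CM 2 were called on leaving out EV CM replicate 1 or 3 or S14 CM replicate 1 or 2. The cyclin genes CCND1 and CCND2 rose by 2.27 ± 0.35 (edgeR adjusted p = 0.000334) and 2.22 ± 0.42 (adjusted p = 0.00172) in mock medium. The transcription factor genes EGR1 and EGR2 rose by 2.26 ± 0.40 (adjusted p = 0.000984) and 3.46 ± 0.82 (adjusted p = 0.00745). FOS, another gene of this immediate early kind, fell to 110.01 from 209 CPM (adjusted p = 0.0198), a call lost without EV mock replicate 1 or 2 or S14 mock replicate 1 (adjusted p from 0.0526 to 0.0631); in CM it was at -0.74 ± 0.26 (adjusted p = 0.0830), and at -0.75 with the replicate block (adjusted p = 0.00686). In CM the same 4 genes rose, but the calls of CCND2 and EGR2 there did not hold: without EV CM replicate 1 both were lost (adjusted p = 0.0787 and 0.0765), and so they were without EV CM replicate 3 or S14 CM replicate 1 or 2. EGR2 was also lost without EV CM replicate 2 (adjusted p = 0.0672).

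Of 10 transcriptional regulators of CSF1R or of macrophage identity, 2 rose and 0 fell in S14 mock, and 1 rose in CM, shares at or near those over all genes (20.0% and 11.1%). CEBPB, a C/EBP family factor gene, was at 166 against 28.2 CPM in mock medium (2.55 ± 0.32, edgeR adjusted p = 6.16e-05) and rose by 2.11 ± 0.31 in CM (adjusted p = 0.000384). ETV3, an ETS repressor gene, rose by 0.87 in mock medium (adjusted p = 0.0219), a call lost on leaving out any 1 of 5 of the 6 libraries compared (adjusted p from 0.0580 to 0.123), S14 mock replicate 3 being the exception. Of 5 genes of the ADAM17 shedding machinery, which releases membrane-bound CSF-1 and CSF1R, 2 rose in mock medium, against 20.0% of all genes, and 3 in CM, against 11.1%. In mock medium 3 rose and 1 fell with the replicate block, where 6672 of all 17851 genes were called. The counts were the same with only the groups compared. TIMP3, an inhibitor of ADAM17, was at 477 against 28.4 CPM in mock medium (4.07 ± 0.61, adjusted p = 0.000282). RHBDF2, which encodes the iRhom2 cofactor of ADAM17, rose by 0.88 (adjusted p = 0.00276) and its relative RHBDF1 by 2.58 in CM (adjusted p = 0.00744). In mock medium RHBDF1 was at 1.48 ± 0.55 (adjusted p = 0.0709), and at 1.68 with the replicate block (adjusted p = 0.00125). ADAM17 itself was at 167 against 134 CPM in mock medium and was not called there; in CM it was at 0.57 ± 0.24 (adjusted p = 0.152), at 0.53 with the replicate block (adjusted p = 0.0203) and at 0.76 without S14 CM replicate 3 (adjusted p = 0.0493).

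**Figure D5:**
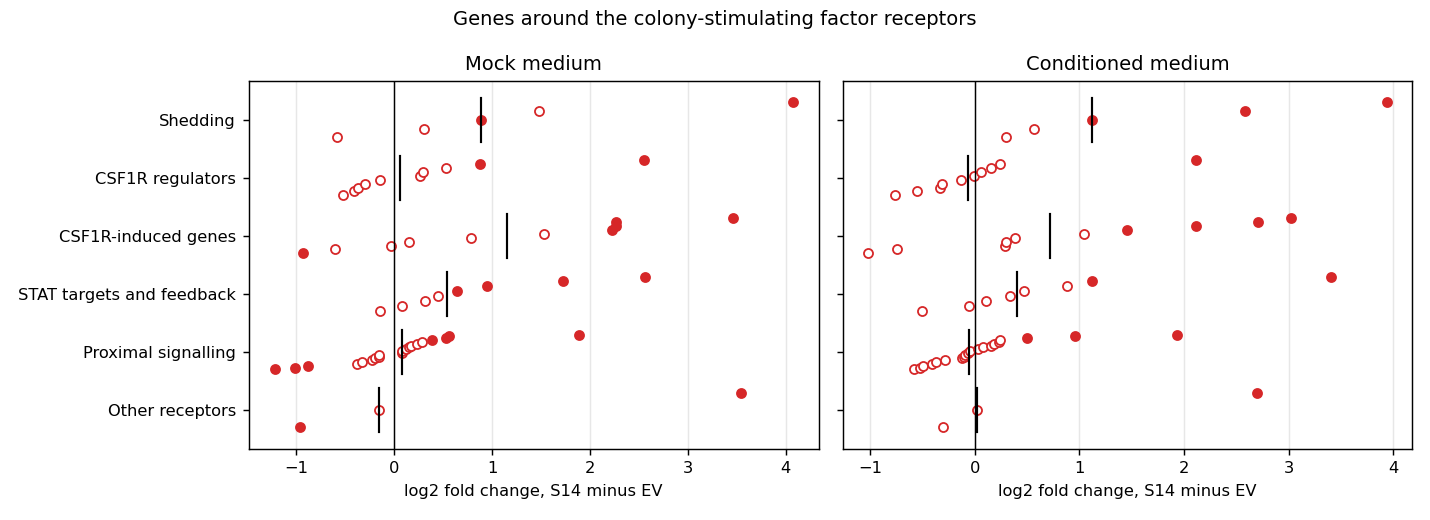
Log2 differences between S14 and EV for the tested genes of 6 pathway lists in mock (left) and conditioned medium (right), filled where edgeR's adjusted p was under 0.05, with a vertical bar at each list's median. The medians of the CSF1R-induced genes were 1.16 and 0.72, and those of the 20 proximal signalling genes 0.09 and -0.05.

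The genes most like each member in pattern were sought over the 6 group means of log2 CPM, centred per gene, among 10224 genes. The measure of likeness was the root mean square difference, small where patterns match. The nearest genes lie under the median by choice, so the medians below give a scale only. For CSF1 the nearest were SSTR2, a somatostatin receptor gene (0.334), ATP1B4 (0.343) and TIMP4, a metalloproteinase inhibitor gene (0.352), against a median of 3.24 over all 10224 genes. All 3 were highest in S14 CM. Their lowest group means were 0.114, 0 and 0.0589 CPM, at or under the limit of 3 counts. The likeness on the low side thus depends on the 0.1 CPM added before taking logs. SSTR2 went from 0.114 CPM in S5 CM to 26.6 CPM in S14 CM. For CSF2RA they were MIR223HG, the host gene of the myeloid microRNA miR-223 (0.130), SPNS3 (0.136) and TNN (0.162), against a median of 1.05. MIR223HG was at 6.75 CPM in S14 mock, its lowest group, and at 61.9 CPM in S5 CM, its highest. For CSF1R they were SYNJ1 (0.0604), KATNIP and KLHL18, for CSF2RB SENP7 (0.0427), RMND1 and HERC2P2, and for CSF3R MAP3K6 (0.0540), TSPAN15 and PSRC1.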

How the data were processed

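Per the labels' protocols, total RNA was turned into stranded libraries with Illumina's TruSeq kit for mRNA. The deposited table holds raw read counts per gene, which the authors made with HISAT2 on GRCh38, per the submitters' processing notes, and TPM values as deposited by the authors. Not given in the sources used here were the counting program, annotation release, strand setting and TPM formula. Reads of antisense neighbours and of near-identical genes may therefore be misassigned. Gene positions are from GENCODE 29 (GRCh38) and promoter windows from RefSeq (GRCh38.p14).

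Libraries were grouped by title. Counts were filtered with edgeR's default filter by group (17851 of 60623 genes left) and scaled with TMM factors, and CPM uses the resulting library sizes. EdgeR 4.0.16 (limma 3.58.1, R 4.3.3) fitted a robust quasi-likelihood model to all 18 libraries with 1 mean per group, and 12 comparisons were tested. P-values were adjusted by the Benjamini-Hochberg method over all genes tested within each comparison, with a call at adjusted p under 0.05. TPM was used only to compare levels between genes and entered no test. The model was tested on simulated data with independent libraries, the same dispersion (relative spread) for all genes and no shift of replicate 3. That test does not cover data with such a shift.

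The members, gene lists, comparisons and the alternative with replicates 1 and 2 only were chosen with earlier results of these data known. All members are named. From each pathway list the text names up to 4 genes called between S14 and EV in either medium, by smallest p and with at least 1 CPM in the higher group, and the other ligands and receptors whatever their values. CISH, SOCS3, FOS, ADAM17, SPI1 and RUNX1 were named after their values were seen. For each member, 3 genes of nearest pattern are named among those with at least 10 CPM in their highest group.

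The titles number the replicates 1 to 3 in each group. Deviations from the group means correlated at 0.155 to 0.794 in all 45 pairs of libraries with the same number. The median was 0.391, against -0.372 for different numbers. Of 18 libraries, 13 had their closest match in another group under the same number. The numbers were taken to pair the samples, on this check of the data and not on a stated design. Replicate 3 stood apart in all groups, and deviations within a group cancel out. The check can therefore not tell a pairing of numbers 1 and 2 across groups from the shift of replicate 3, and the blocked values rest on it. Blocked values stand beside results whose call they change, and beside list counts they move by more than 1.5 times. The alternatives were DESeq2 1.42.0, upper-quartile scaling, no filter, only the groups compared, the replicate block, replicates 1 and 2 only, and each library left out in turn. They were also applied to the list genes between S14 and EV, an addition made after seeing the data.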

Additional observations from a re-analysis of the deposited data

How the results depend on the processing

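The 6 called estimates of members (CSF1 in 4 comparisons of S14 with EV or S5, CSF2RA in the 2 in mock medium) kept their direction and their call under all alternatives run. Of 54 uncalled estimates, 15 changed sign under some alternative. With replicates 1 and 2 only, the members called rose to 5 between S14 and EV and 5 between S14 and S5 in mock medium (2 in the main analysis for each). In CM they rose to 4 and 3 (1 each). For conditioned against mock medium they rose to 2 in EV, 2 in S5 and 5 in S14 (0 each), and for the response of S14 minus EV and minus S5 to 5 and 4 (0 each). Calls over all 17829 genes tested rose as well in this setting. They were 566 in EV, 1259 in S5 and 8066 in S14 between the media, and 4328 and 3898 for these responses. Between S14 and S5 they were 9773 in mock medium and 7573 in CM. With the replicate block the members called were 4 and 2 between S14 and EV in mock medium and CM, 2 between S14 and S5 in CM and 3 for CM in S14. The block changed no member's call elsewhere but that of CSF3R given in the text. DESeq2 called 2 for CM in S14 and 2 between S14 and S5 in CM, and upper-quartile scaling called 2 in the latter. In mock medium DESeq2 also called CSF2RB between S14 and EV (adjusted p = 0.0464; 0.0489 by edgeR with only the groups compared) and CSF3R between S14 and S5 (0.0473). Leaving out 1 library gave 0 to 2 for CM in S14 (2 without S14 mock or S14 CM replicate 3) and 1 to 2 between S14 and S5 in CM (2 without S14 CM replicate 2). Without 1 library, the S14 minus EV response of CSF1 ranged from -0.54 to 1.41, the S14 minus S5 difference of CSF2RB in CM from -0.32 to 0.10 and the S14 minus EV difference of CSF3R in CM from -0.40 to 0.22; all were uncalled and the cause was not tested. Over all genes, calls between S14 and EV in mock medium went from 3575 to 6672 with the block and 9921 with replicates 1 and 2 only, in CM from 1990 to 4207 and 7825, and for CM in S14 from 9 to 1956 and 8066 (DESeq2 882, no filter 38, groups compared only 0). Against S5 they went from 3835 to 6878 in mock medium and from 2460 to 4744 in CM with the block, and to 1875 and 1194 with only the groups compared. Upper-quartile scaling moved the median of all genes between S14 and EV in mock medium from -0.02 to -0.12 and the share of calls that were higher from 55.3% to 44.3%. Of the list genes named in the text, the called ones kept their sign between S14 and EV, and 4 uncalled ones changed it. IL3RA in CM (0.02) was at -0.0057 with only the groups compared, -0.048 with the block, -0.028 with upper-quartile scaling and -0.28 to 0.49 without 1 library. In mock medium IL3RA (-0.15) and CISH (-0.14) were at 0.088 and 0.29 with replicates 1 and 2 only and at -0.38 to 0.22 and -0.44 to 0.30 without 1 library, RUNX1 at -0.51 to 0.069 and SOCS3 at -0.13 to 0.80 (in CM -0.057 to 0.70). The cause was not tested. Without the filter SDC1 (adjusted p = 0.0523) and EGR2 (0.0948) lost their call in CM, and with only the groups compared so did SDC1 (0.0894) and CCND2 (0.0680) in CM and ETV3 (0.0952) in mock medium. Depth limits IL34 and the other ligands, whose counts were at or under the floor in most libraries.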
